A study of Mus musculus with 24 samples.

Results

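Integrins, laminins and the other proteins that tie an epithelial cell to its basement membrane were followed by the RNA of 33 genes, which were listed by name and looked up in a table of 55421 mouse genes. All 33 were found and passed the filter on low counts that left 18046 genes for testing. Alveolar type 2 epithelial cells (AEC2s), the surfactant-producing cells of the lung alveolus, had been isolated from Krt8+/+ (WT) and Krt8-/- (KO) mice. RNA was sequenced from fresh cells (day 0) and after 1, 3 and 7 days of 2D culture. The paper describes the culture surface as stiff and laminin-coated, so laminin was also supplied from outside the cells. The part of this coating in the members' changes was not tested. Each of the 8 groups of genotype and day had 3 libraries, 24 in all, which the labels assign to 3 dated batches and number as biological replicates (batches 1 to 3 here). What the dates stand for is not stated. Krt8 encodes keratin 8, an intermediate filament protein of simple epithelia, and the KO is global, so that it is not restricted to AEC2s. For the age and strain of the mice and the number pooled per batch, the sources used here give nothing.

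Integrins are receptors made of 1 alpha and 1 beta chain that span the plasma membrane and bind the matrix outside and the cytoskeleton inside. A laminin is a cross-shaped trimer of an alpha, a beta and a gamma chain, and the sheet that laminins form is joined to the type IV collagen network by nidogens and by the proteoglycans perlecan and agrin. In the alveolus, epithelial cells rest on such a sheet, and which laminin chains it holds affects which receptors can bind.

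The libraries held 10184439 to 19483386 counts. Gene positions are those of GRCm38 in the GENCODE M21 annotation. Levels are given as CPM, counts scaled to library size with edgeR's TMM factors, and as CPM per kb of exon where genes are compared with each other. Krt8 stood at 485 to 5092 CPM in the 12 WT libraries and at 21.2 to 47.4 CPM in the 12 KO libraries. The 10 AEC2 markers listed, among them Sftpc, Sftpb and Lamp3, summed to 231130.1 to 309264 CPM on day 0 and to 191 to 291 CPM on day 7, so that the markers of the labelled cell type were near absent by then. Epithelial markers (8 genes, Krt8 among them) summed to 2829.9 to 3405 CPM on day 0 and 5288 to 16489 CPM on day 7. Of 10 endothelial markers the sum was 29.1 to 46.4 CPM on day 0 and 3.66 to 7.59 CPM on day 7, and Pecam1 had no count in any WT library on days 3 and 7. The sum of 10 fibroblast markers was 309 to 1193 CPM on day 0, 108 to 402 CPM on day 1 and 798 to 2981 CPM on day 7, and that of 8 smooth muscle and pericyte markers was 7.97 to 28.9 CPM when fresh and 419.5 to 919.5 CPM after 7 days. Mesothelial markers (5 genes) summed to 98.3 to 273 CPM when fresh and 881 to 2456 CPM after 7 days, in the direction of most members, and their part in the members' changes was not tested. Ciliated and club markers (6 genes) summed to 5836 to 19622 CPM when fresh and 16.6 to 36.3 CPM after 7 days, and macrophage markers (10 genes, most of it Lyz2 when fresh, which AEC2s also express) to 34786 to 46378 and 22.7 to 3233 CPM. Batch 2 stood apart on day 1 in both genotypes, with AEC2 marker sums of 15263 CPM (WT) and 14424 CPM (KO) against 64096 to 89139 CPM in the other day 1 libraries. WT batch 1 had the highest fibroblast sum of day 0 (1193 CPM). The genotypes differed in batch 1 in the sum of 4 Y-linked genes, which was 0 to 0.441 CPM in WT and 173 to 191 CPM in KO libraries, while batch 2 had near 0 and batch 3 had 174 to 229 CPM in both, so that in batch 1 these genes and the genotype cannot be told apart.

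Promoter sequence from RefSeq (GRCm38.p6, 250 bases before to 50 after an annotated start) was at hand for 23 of the 33 members, in 28 windows. Shown here, 5′ to 3′, are the windows of Itga2 and Nid1, which had the largest fitted rises by day 7 of members with counts on day 0, and of Lamb1 and Lamb2, the chains that changed places in the course of culture. Capitals mark the only match in these 4 windows to GGAATG (or CATTCC, its other strand), the core bound by TEAD factors. The AP-1 site was searched as TGACTCA or TGAGTCA.
Itga2 (chr13:114932051-114932350, minus strand): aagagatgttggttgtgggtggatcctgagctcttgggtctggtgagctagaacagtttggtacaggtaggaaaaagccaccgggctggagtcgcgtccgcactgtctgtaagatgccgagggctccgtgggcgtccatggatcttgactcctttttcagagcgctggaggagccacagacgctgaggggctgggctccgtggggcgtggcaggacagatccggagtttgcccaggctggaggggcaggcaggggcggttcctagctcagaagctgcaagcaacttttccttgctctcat
Nid1 (chr13:13437352-13437651, plus strand): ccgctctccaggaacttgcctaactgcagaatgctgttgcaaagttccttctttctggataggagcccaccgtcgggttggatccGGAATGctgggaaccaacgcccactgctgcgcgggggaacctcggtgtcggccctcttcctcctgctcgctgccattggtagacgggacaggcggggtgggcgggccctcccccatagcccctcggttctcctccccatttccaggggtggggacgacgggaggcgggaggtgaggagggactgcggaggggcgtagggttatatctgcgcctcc
Lamb1 (chr12:31265043-31265342, plus strand): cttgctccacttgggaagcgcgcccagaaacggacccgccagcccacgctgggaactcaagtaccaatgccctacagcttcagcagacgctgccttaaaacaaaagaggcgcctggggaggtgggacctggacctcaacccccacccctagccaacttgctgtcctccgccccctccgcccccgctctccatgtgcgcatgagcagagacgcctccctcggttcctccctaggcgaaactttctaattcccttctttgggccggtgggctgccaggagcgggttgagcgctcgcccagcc
Lamb2 (chr9:108479612-108479911, plus strand): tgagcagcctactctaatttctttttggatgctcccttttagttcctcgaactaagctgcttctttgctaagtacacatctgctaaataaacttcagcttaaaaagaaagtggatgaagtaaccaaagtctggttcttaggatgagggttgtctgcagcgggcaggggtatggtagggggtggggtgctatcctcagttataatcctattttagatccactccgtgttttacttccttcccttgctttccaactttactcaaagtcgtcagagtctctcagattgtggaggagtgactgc
The match in Nid1 begins 165 bases before the start. GGAATG was held by 3 of the 28 member windows (10.7%), those of Itgb1, Lamb3 and Nid1, and by 14.7% of all 32851 promoter windows. The AP-1 site was held by 1 member window (3.57%), that of Itga9, and by 5.2% of all. These are matches of letters within the window, and binding was not measured.

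After 1 day of culture 10 of the 33 members were higher and 7 lower than on day 0 in WT AECs (edgeR quasi-likelihood test, Benjamini-Hochberg adjusted p under 0.05 over all genes). Of all genes tested, 26.2% were higher and 28.5% lower, so the members' shares were near the background on day 1. After 3 days, 20 members were higher and 3 lower, against 26.1% and 27.8% of all genes. After 7 days, again 20 were higher and 3 lower, against 28.6% and 30.2%. The median log2 change of the 33 members was 0.00 on day 1, 1.18 on day 3 and 1.67 on day 7 (1.40 with the day 0 level of Lama1, which had no count, taken as 3 counts in the group), and that of all genes was 0.00 on each day. Between day 1 and day 3 directly, 23 members were higher and 1, Itga7, lower (14.4% and 11.9% of all genes). Between day 3 and day 7, 7 members were higher and none lower by edgeR (3.11% and 3.47% of all genes). At an unadjusted p under 0.05 there were 12 members in this last comparison, and DESeq2 called 1 member, Lama4, lower. Without batch 2, 4 members were lower on day 1, 11 were higher on day 3 than on day 1 and 2 higher on day 7 than on day 3. Over all genes, calls in either direction also became fewer without batch 2. They numbered 7264 on day 1 (9874 with all), 2614 between days 1 and 3 (4740) and 325 between days 3 and 7 (1188). On day 7, 1 member was lower without batch 1 and 5 without batch 3, and 3 were higher than on day 3 without batch 3. All genes called on day 7 numbered 8719 without batch 1 and 9362 without batch 3 (10611 with all). Between days 3 and 7 they numbered 572 without batch 3. The comparisons with day 0 share the same 3 day 0 libraries. In bulk RNA, fewer cells of a type and less RNA per cell cannot be told apart.

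In time, 10 members were higher from day 1 on, namely Itga2, Itga3, Itga5, Itga6, Itgav, Itgb4, Itgb5, Fermt1, Fermt2 and Nid1. Of these 10, all but Nid1 encode receptor chains or the kindlins that bind them inside the cell. Another 8 were called higher on days 3 and 7 but not on day 1: the receptor chains Itgb1 and Itgb3, the laminin chains Lama3, Lama5, Lamb1, Lamb3 and Lamc1, and Agrn. No laminin chain was called higher on day 1 in this fit. Without batch 2 on day 1 alone, Lamb3 (0.62, edgeR adjusted p = 0.0112) and Lamc1 (0.76, edgeR adjusted p = 0.0168) were called higher on WT day 1. Lamb3 was also called there with batch 2 left out on all days (0.60, edgeR adjusted p = 0.0355). In KO AECs the DESeq2 test called Lamb3 higher on day 1 (0.47, adjusted p = 0.0318). Itga7 and Lamb2 were lower on all 3 days. Itga1, Itga9, Nid2 and Hspg2 were called lower on day 1 and not called lower afterwards in this fit, and Hspg2 was then higher on days 3 and 7. With only the compared libraries fitted, Itga1 was called lower on day 3 (-1.02, edgeR adjusted p = 0.0391) and Itga9 on day 7 (-0.61, edgeR adjusted p = 0.0163). Without batch 3, Nid2 was called lower on day 7 (-2.11, edgeR adjusted p = 0.00709). Dag1 was lower on days 1 and 3, Itga8 on day 7, Cd151 was higher on day 7 and Lama1 on day 3. Itga11, Itgb8, Lama2, Lama4 and Lamc3 were called on no day against day 0 in this fit. Some of these calls were lost when 1 batch was left out, and those not listed next are given with their genes below. On day 1 they included Fermt1 without batch 2 (2.11 against 2.20 with all, adjusted p = 0.0537), Itga1 without batch 3 (-1.92 against -2.36 with all, adjusted p = 0.0542) and Itgb5 without batch 1 (0.74 against 0.78 with all, adjusted p = 0.0964), by edgeR. On day 3 they included Lama5 and Hspg2 without batch 2 (0.79 against 1.09 with all, adjusted p = 0.107, and 0.70 against 0.84 with all, adjusted p = 0.215), and on day 7 Lamc1 without batch 3 (0.43 against 0.79 with all, adjusted p = 0.203), all by edgeR.

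**Figure D1:**
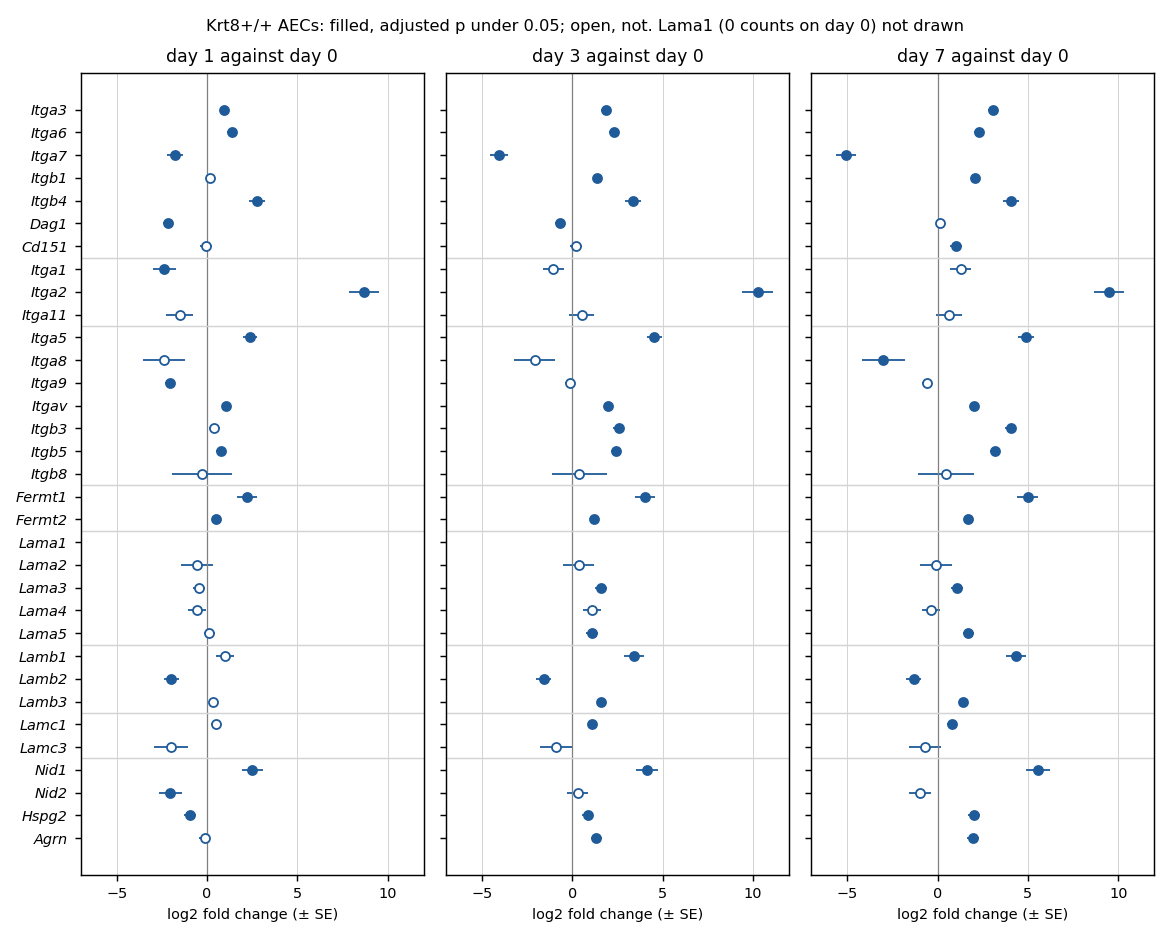
Fitted log2 fold change against day 0 (x axis, ± SE) of the members (y axis, grouped by role) in Krt8+/+ AECs on days 1, 3 and 7, from 3 libraries per day; filled points passed an adjusted p of 0.05. On day 7, 20 members lie to the right of 0 with filled points and 3 to the left, and Itga2 at 9.47 and Itga7 at -5.07 are the extremes of those drawn.

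Among the receptors for laminin, the chains of the hemidesmosome receptor and of the alpha 3 beta 1 receptor rose and the alpha 7 chain fell. Itgb4 (chr11:115974709-116008412, plus strand) encodes integrin beta 4, which pairs with alpha 6 and is anchored to keratin filaments. Its levels in WT batches 1 to 3 were 15.2, 16.5 and 3.76 CPM in fresh cells, 92.98, 85.8 and 63.3 after 1 day, 99.6, 165 and 97.9 after 3 days and 219, 253 and 128 after 7 days. Each culture library lay above each day 0 library, and the rise by day 7 was 16.8-fold (log2 fold change 4.07, SE 0.45, edgeR adjusted p = 1.46e-07). In KO AECs the values were 15.1, 18.6 and 8.81 CPM on day 0 and 250.1, 331 and 126 on day 7. Its partner Itga6 was at 27.7 ± 5.31 CPM (SD, n = 3) when fresh, 71.1 ± 3.05 after 1 day and 134 ± 23.1 after 7 days (log2 fold change 2.28, SE 0.29, edgeR adjusted p = 9.41e-07).

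Itga7 (chr10:128933818-128958282, plus strand) encodes integrin alpha 7, a laminin receptor chain best known from muscle. In the WT libraries it stood at 88.6, 83.4 and 50.7 CPM in fresh cells, 31.9, 10.7 and 22.1 after 1 day, 5.25, 3.50 and 4.60 after 3 days and 1.23, 2.49 and 2.92 after 7 days. No library of a culture day reached the lowest day 0 library, and by day 7 the level was 0.0298 times that of day 0 (log2 fold change -5.07, SE 0.55, edgeR adjusted p = 1.19e-07). The change on day 1 (log2 fold change -1.78) was not called without batch 2 (-1.29, edgeR adjusted p = 0.0906), whose day 1 library held the lowest of the 3 values. Itga3, an alpha chain of epithelial laminin receptors, moved the other way, from 104, 90.4 and 76.9 CPM on day 0 to 793, 948 and 524 CPM on day 7 (log2 fold change 3.06, SE 0.28, edgeR adjusted p = 1.02e-08). Per kb of exon, the ratio of Itga3 to Itga7 was 1.66, 1.54 and 2.15 in fresh cells, 8.29, 23.4 and 10.7 after 1 day, 72.5, 179.6 and 88.2 after 3 days and 917, 539.8 and 255 after 7 days. The ratios of the 4 days did not overlap. The KO libraries had ratios of 1.57, 1.86 and 1.87 on day 0 and 2184, 857 and 162 on day 7, when Itga7 itself stood at 0.515 to 4.02 CPM.

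Itgb1 encodes integrin beta 1, the common partner of most alpha chains listed here, and was the beta chain with the highest level per kb in every WT group. It stood at 153 ± 7.71 CPM per kb (SD, n = 3) in fresh cells, 169 ± 23.7 after 1 day, 395 ± 48.8 after 3 days and 633 ± 99.7 after 7 days. The day 1 value overlapped day 0, while all libraries of days 3 and 7 lay above both (on day 7, log2 fold change 2.05, SE 0.16, edgeR adjusted p = 1.53e-09). Dag1 encodes dystroglycan, a laminin receptor that is no integrin. It fell on day 1 from 638, 545 and 537 CPM to 163, 95.8 and 124 CPM (log2 fold change -2.17, SE 0.26, edgeR adjusted p = 9.92e-07), rose again from day 1 to day 3 (log2 fold change 1.48, SE 0.26, edgeR adjusted p = 3.11e-04) and stood at 426, 625 and 865 CPM on day 7, where the libraries overlapped those of day 0. Its change against day 0 on day 3 (log2 fold change -0.69, SE 0.25) was -0.80 to -0.47 when any 1 of the 3 batches was left out, and not called then (edgeR adjusted p = 0.0513 to 0.103). Cd151 encodes a tetraspanin that holds laminin-binding integrins. It was higher on day 7 alone (log2 fold change 1.00, SE 0.33, edgeR adjusted p = 0.0137), and without batch 1 the change was 0.67 and not called (edgeR adjusted p = 0.227).

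Of the 3 collagen receptor alpha chains, Itga2 rose from almost nothing. It is read from chr13:114833081-114932100, minus strand and encodes integrin alpha 2, which pairs with beta 1 to bind fibrillar collagen. On day 0 the WT libraries had 0, 0.867 and 0 CPM, which is 8 counts in 1 library. They had 75.9, 154 and 76.5 CPM on day 1, 218, 431 and 264 on day 3 and 249, 189 and 92.4 on day 7. Every culture library lay far above every day 0 library in both genotypes (KO 0.576, 0 and 0 CPM on day 0 and 227, 213 and 104 on day 7). The fitted log2 change by day 7 was 9.47 (SE 0.83, edgeR adjusted p = 6.87e-09), and its size depends on the 8 counts of WT batch 2. Without that batch no WT count is left on day 0, and the fitted 14.26 depends on the prior count. Itga1, another collagen receptor chain, fell on day 1 (log2 fold change -2.36, SE 0.64, edgeR adjusted p = 0.004) and was at 8.30, 17.996 and 14.2 CPM on day 7 against 6.49, 4.22 and 5.76 CPM on day 0 (edgeR adjusted p = 0.0594). Itga11 stayed between 0 and 5.89 CPM in the WT libraries. Per kb and by the group mean, Itga2 was the last of 10 alpha chains on day 0 and the third on day 3, and Itga1 and Itga11 were among the 4 lowest alpha chains on every day.

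Among the chains of receptors for the RGD motif and for tenascin, Itga5 rose most. It is read from chr15:103344286-103366763, minus strand and encodes integrin alpha 5, which pairs with beta 1 as the fibronectin receptor. Its WT levels were 21.05, 17.98 and 14.7 CPM in fresh cells, 135, 76.8 and 70.9 after 1 day, 585, 372 and 300.2 after 3 days and 417, 446 and 727 after 7 days. The day 0, day 1 and day 3 libraries did not overlap, days 3 and 7 did, and the rise by day 7 was 29.4-fold (log2 fold change 4.88, SE 0.44, edgeR adjusted p = 1.07e-08). Per kb of exon, Itga5 passed from 3.63 ± 0.641 on day 0 to 84.98 ± 30.04 on day 3 and 107 ± 34.7 on day 7, and Itga3 and Itga5 were the top 2 alpha chains on days 1, 3 and 7. The SDs of these 2 chains overlapped on days 3 and 7, so their order on those days is not resolved.

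Itgav, the alpha chain of the vitronectin and TGF-beta-activating receptors, rose 4.05-fold by day 7 (log2 fold change 2.02, SE 0.24, edgeR adjusted p = 4.35e-07). Of its beta partners among the members, Itgb3 went from 9.55 ± 2.68 to 161 ± 36.6 CPM (log2 fold change 4.06, SE 0.31, edgeR adjusted p = 1.02e-09) and Itgb5 from 16.8 ± 6.65 to 153 ± 22.7 CPM (log2 fold change 3.18, SE 0.28, edgeR adjusted p = 7.34e-09), while Itgb8 had 108 counts in all 24 libraries together. Itgb6, a partner of Itgav outside the 33, encodes integrin beta 6, the epithelial chain that activates TGF-beta. It was at 15.01, 15.5 and 15.3 CPM in fresh cells, 131, 159 and 138 after 1 day, 381, 647 and 480.1 after 3 days and 312, 364 and 322 after 7 days. The 4 days did not overlap, and every day 7 library lay above every day 1 library and under every day 3 library. Itga9, the tenascin receptor chain with the highest level per kb of all alpha chains on day 0 (25.1 ± 1.84), fell on day 1 (log2 fold change -2.04, SE 0.28, edgeR adjusted p = 5.22e-06) and was near its starting level on day 3 (log2 fold change -0.11, SE 0.27).

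Itga8 (chr2:12106632-12301922, minus strand) encodes an RGD receptor chain known from fibroblasts and smooth muscle. Its WT levels were 57.7, 6.17 and 3.76 CPM in fresh cells, 12.4, 0.501 and 0.272 after 1 day, 9.05, 4.99 and 2.04 after 3 days and 4.49, 1.74 and 2.19 after 7 days. Batch 1 was the highest of the 3 on each of these days, and the day 7 libraries overlapped those of day 0. The fall by day 7 (log2 fold change -3.01, SE 1.19, edgeR adjusted p = 0.0357) rests on that batch, since without WT day 0 batch 1 it was -0.81 (edgeR adjusted p = 0.583), while without batch 2 the change was as large (-3.12) but not called (edgeR adjusted p = 0.121). On day 0 the fibroblast marker sums were 1193, 559 and 309 CPM, with Inmt at 142, 39.6 and 10.5 CPM, in the same order of libraries as Itga8. On day 7 the sums were 872, 955 and 1809.5 CPM and Inmt had no count. In KO libraries Itga8 was at 24.9, 22.7 and 3.94 CPM on day 0 and 3.15, 1.79 and 6.51 on day 7, which overlapped too. The part of fibroblasts in the level of Itga8 was not tested.

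**Figure D2:**
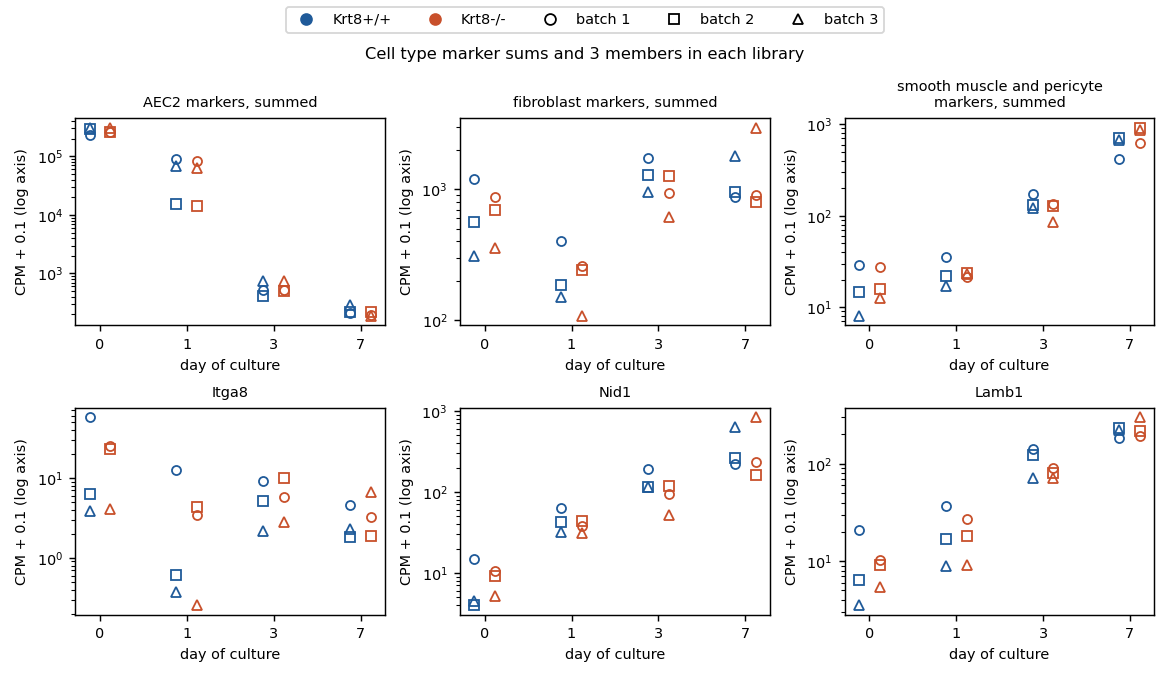
Summed CPM of AEC2, fibroblast, and smooth muscle and pericyte markers (upper row) and CPM of Itga8, Nid1 and Lamb1 (lower row) in each library, on log axes with 0.1 added, by day of culture. WT batch 1 (blue circle) is the highest day 0 library for fibroblast markers (1193 CPM), Itga8 (57.7 CPM), Nid1 (14.8 CPM) and Lamb1 (20.6 CPM), and batch 3 (triangles) is the highest on day 7 for fibroblast markers and Nid1 in both genotypes.

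Kindlins bind the tails of beta chains and, with talin, switch integrins on. Fermt1 (chr2:132904389-132945906, minus strand), the kindlin of epithelia, stood in WT libraries at 3.43, 2.38 and 0.554 CPM in fresh cells, 12.9, 13.3 and 4.75 after 1 day, 30.96, 49.6 and 29.95 after 3 days and 108, 81.7 and 25.3 after 7 days. Every culture library was above every day 0 library, and batch 3 was the lowest on each day. The rise by day 7 was 31.99-fold (log2 fold change 5.0, SE 0.58, edgeR adjusted p = 2.95e-07). Fermt2, the widely expressed kindlin, rose 3.19-fold, from 101.2 ± 4.82 to 323 ± 56.7 CPM (log2 fold change 1.67, SE 0.13, edgeR adjusted p = 2.15e-09).

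**Figure D3:**
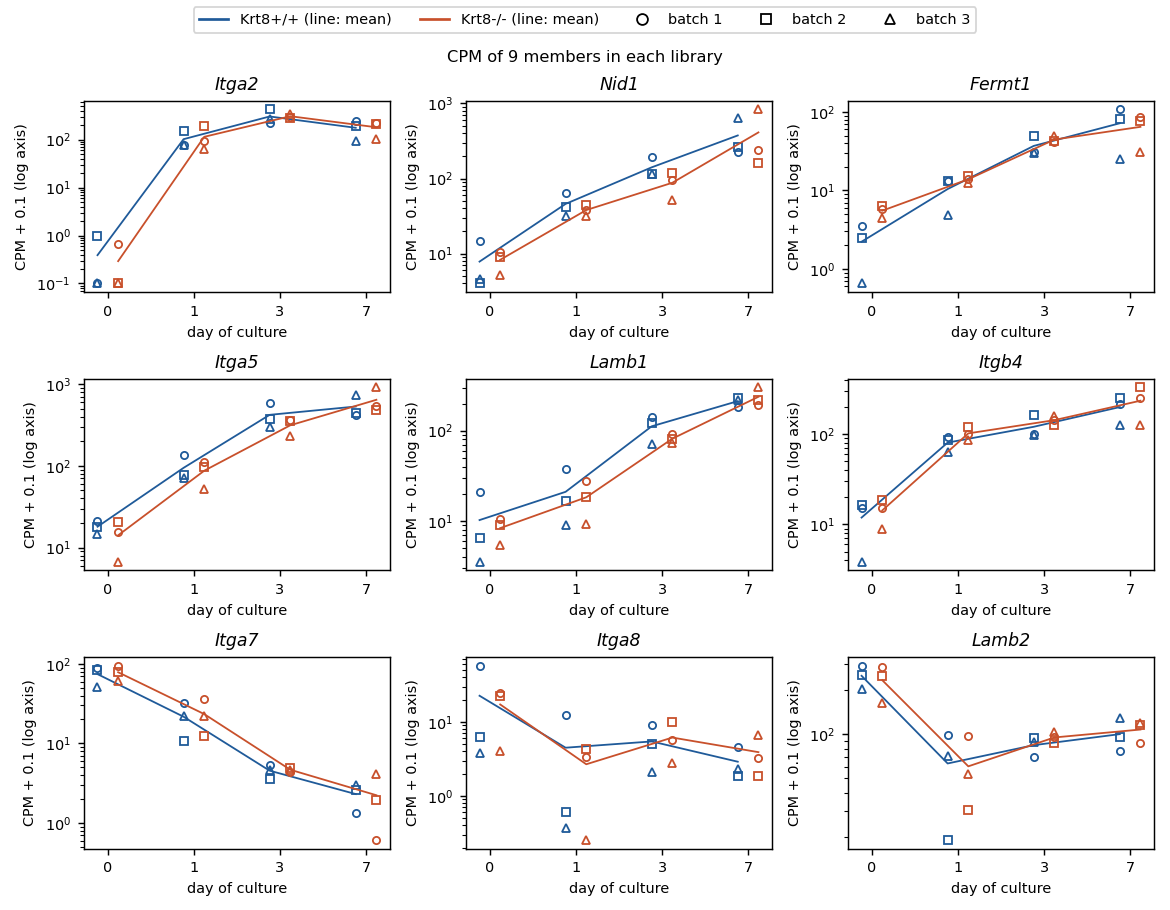
CPM (log axis, 0.1 added) of the 6 members with the largest rise and the 3 with a fall by day 7, by day of culture, in each of 24 libraries; symbols are batches, lines join group means, blue is Krt8+/+ and orange Krt8-/-. Itga2 starts at 0 to 0.867 CPM and lies between 63.8 and 431 CPM on all later days, Itga7 falls on each successive day, and the genotypes overlap on each day except for Fermt1 on day 0.

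Among laminin chains, Lamb2 and Lamb1 changed places, and Lamb3 was the highest beta chain from day 1. Lamb2 (chr9:108479736-108490530, plus strand) encodes laminin beta 2, and Lamb1 (chr12:31265234-31329644, plus strand) encodes laminin beta 1, which take each other's place in laminins with an alpha 5 or alpha 4 chain. Lamb2 had 294, 253 and 205 CPM in the WT libraries on day 0, 98.998, 18.97 and 71.6 on day 1, 69.6, 94.9 and 88.4 on day 3 and 76.4, 96.1 and 128 on day 7. All 9 culture libraries were under the lowest day 0 library, and the level of day 7 was 0.400 times that of day 0 (log2 fold change -1.32, SE 0.41, edgeR adjusted p = 0.00937), and without batch 1 it was -1.03 on the log2 scale and not called (edgeR adjusted p = 0.0762). Lamb1 had 20.6, 6.28 and 3.43 CPM in fresh cells, 37.2, 16.6 and 8.89 after 1 day, 142, 122 and 71.5 after 3 days and 184, 232 and 221 after 7 days. Days 0 and 1 overlapped as groups, although each batch was higher on day 1 than on day 0, and days 3 and 7 lay above both and apart from each other, and the rise by day 7 was 20.3-fold (log2 fold change 4.34, SE 0.56, edgeR adjusted p = 1.34e-06). With batch as a block, Lamb1 was called higher on day 1 in WT (1.03, edgeR adjusted p = 0.0475) and in KO AECs (1.10, 0.0407). The highest day 0 value was that of WT batch 1, and without it the log2 change was 5.45 on day 7 and Lamb1 was called higher on day 1 too (2.10, edgeR adjusted p = 0.00353).

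Per kb of exon, the ratio of Lamb2 to Lamb1 in the WT libraries was 23.3, 65.7 and 97.4 in fresh cells, 4.34, 1.86 and 13.1 after 1 day, 0.802, 1.27 and 2.02 after 3 days and 0.678, 0.674 and 0.945 after 7 days. It was over 1 in every library of days 0 and 1 and under 1 in every library of day 7. In KO libraries it went from 45.5, 45.3 and 50.4 on day 0 to 0.746, 0.866 and 0.644 on day 7. The smooth muscle and pericyte marker sum rose over the same days as Lamb1, from 28.9, 14.6 and 7.97 CPM on day 0 to 419.5, 711 and 673 CPM on day 7 in WT libraries, led by Cnn1, while Rgs5 stayed under 1 CPM. Its part in the level of Lamb1 was not tested.

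Lamb3, the beta chain of the anchoring laminin of epithelia, was lower than Lamb2 on day 0 (32.7 ± 0.297 against 41.2 ± 7.34 CPM per kb) and the highest beta chain from day 1, with 41.7 ± 9.60, 97.7 ± 21.8 and 86.4 ± 11.04 CPM per kb on days 1, 3 and 7 (for day 7, log2 fold change 1.40, SE 0.19, edgeR adjusted p = 3.04e-06). The alpha chain of that laminin is encoded by Lama3. Lama3 was not called on day 1 (log2 fold change -0.44, SE 0.33) and rose by day 3 (log2 fold change 1.57, SE 0.34, edgeR adjusted p = 5.16e-04) and day 7 (log2 fold change 1.07, SE 0.33, edgeR adjusted p = 0.0087), the latter being 0.99 and not called without batch 2 (edgeR adjusted p = 0.06).

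Of the other alpha chains, Lama5, a main alpha chain of the alveolar sheet, was the highest per kb on every day in WT AECs by the group mean. It stood at 5.57 ± 1.91 CPM per kb on day 0 and 18.2 ± 3.86 on day 7 (log2 fold change 1.71, SE 0.32, edgeR adjusted p = 1.02e-04). On WT day 3 Lama5 and Lama3 (10.1 ± 3.87) differed by less than their SDs. On KO day 3 Lama3 had the higher mean (13.5 ± 0.749 against 12.9 ± 1.52 CPM per kb for Lama5). Lama4 was at 2.88 to 24.5 CPM on day 0, with the highest value in batch 1, and rose from day 1 to day 3 (log2 fold change 1.65, SE 0.50, edgeR adjusted p = 0.0189), a call lost without batch 1 or 2. On day 3 against day 0 it was not called (log2 fold change 1.08, edgeR adjusted p = 0.0671), but passed with the DESeq2 test (1.12, adjusted p = 0.0416), with no filter (edgeR adjusted p = 0.0336), with batch as a block (0.0462) and without WT day 0 batch 1 (1.83, 0.00704). Lama2, a chain of mesenchymal basement membranes, was at 0.332 to 6.68 CPM on day 0 and 1.63 to 3.78 CPM on day 7. Lama1 had no count in the 3 WT libraries of day 0 or of day 1, 51 counts on day 3 and 9 on day 7. Taking 3 counts in the whole group as the most that a count of 0 allows, the observed level of Lama1 was 11.96 times this floor on day 3. On day 7 it was 2.44 times the floor, and the test was not passed (edgeR adjusted p = 0.0802). These ratios leave out the error of the 51 and 9 counts themselves, so that of day 7 does not establish a rise. Of the member gamma chains, Lamc1 rose 2.13-fold by day 3 (log2 fold change 1.09, SE 0.25, edgeR adjusted p = 8.98e-04) and was 1.73-fold higher on day 7, and Lamc3 stayed at 0 to 7.63 CPM.

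**Figure D4:**
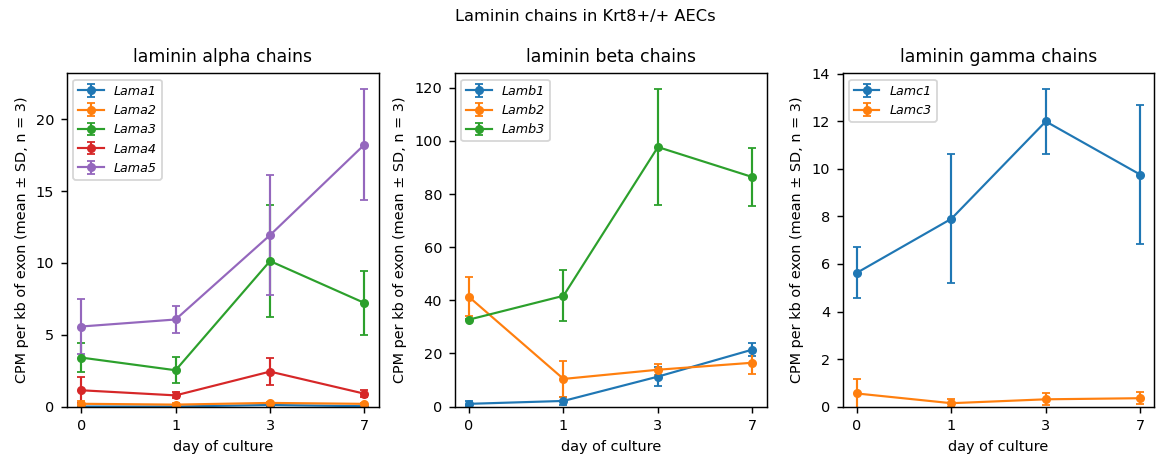
Mean CPM per kb of exon (y axis, from 0; bars are SD, n = 3) of the member laminin alpha, beta and gamma chains in Krt8+/+ AECs on days 0, 1, 3 and 7 (x axis). Lamb2 falls from 41.2 to 16.5 while Lamb1 rises from 1.02 to 21.4, Lamb3 leads the beta chains from day 1, and Lama5 reaches 18.2 on day 7.

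Of the linkers and proteoglycans, Nid1 rose from day 1 and Hspg2 and Agrn from day 3. Nid1 (chr13:13437551-13512269, plus strand) encodes nidogen 1, which joins laminin to type IV collagen. Its WT levels were 14.8, 3.90 and 4.43 CPM in fresh cells, 63.6, 42.04 and 31.8 after 1 day, 192, 116 and 114 after 3 days and 224, 266 and 635 after 7 days. The 4 days did not overlap, the highest values being those of batch 1 up to day 3 and of batch 3 on day 7. The rise by day 7 was 46.7-fold (log2 fold change 5.54, SE 0.66, edgeR adjusted p = 4.91e-07), and the log2 change was 4.67 without batch 3 and 6.75 without batch 1. On day 7 batch 3 also held the most Col1a1 (375, 431 and 760.1 CPM in WT and 443, 398 and 1260.1 in KO batches 1 to 3) and Pdgfrb (27.7, 48.02 and 102 CPM and 53.2, 36.9 and 197). The sum of the smooth muscle and pericyte markers, of which Pdgfrb is one, was instead highest in batch 2. It was 419.5, 711 and 673 CPM in WT and 628, 919.5 and 866 CPM in KO batches 1 to 3. The part of mesenchymal cells in the level of Nid1 was not tested.

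Nid2, the second nidogen, went the other way on day 1, from 26.1, 8.88 and 6.53 CPM to 3.23, 2.17 and 4.75 CPM (log2 fold change -2.04, SE 0.63, edgeR adjusted p = 0.00949), and was back within the day 0 range on day 3. Hspg2, which encodes perlecan, fell on day 1 (log2 fold change -0.97, SE 0.33, edgeR adjusted p = 0.0171) and was 4.06-fold higher on day 7 (log2 fold change 2.02, SE 0.32, edgeR adjusted p = 1.94e-05). The day 1 fall of Nid2 was about as large without batch 2 (-1.94) and smaller without batch 1 (-1.14) or WT day 0 batch 1 (-1.18), and was called in none of the 3 (edgeR adjusted p = 0.103, 0.117 and 0.126). That of Hspg2 was -0.76 without batch 2 and -0.74 without WT day 0 batch 1, and was called in neither (edgeR adjusted p = 0.192 and 0.0946). Agrn, which encodes agrin, stood at 80.9, 53.6 and 47.7 CPM on day 0 and 199, 275 and 236 CPM on day 7 (log2 fold change 1.96, SE 0.33, edgeR adjusted p = 3.34e-05), and no day 7 library was as low as any of day 0. Of the 6 chains of type IV collagen, which nidogen and perlecan bind, Col4a1, Col4a2, Col4a3 and Col4a4 fell on day 1, while Col4a5 and Col4a6 were not called (log2 fold change -0.40 and -0.55). By day 7 all but Col4a6 were higher than on day 0, Col4a3 most (log2 fold change 3.77, SE 0.42, edgeR adjusted p = 1.60e-07). Col4a1 had 590.1, 486 and 477 CPM in fresh cells, 380.4, 194 and 304 after 1 day, 686, 899 and 815 after 3 days and 624, 827 and 1146 after 7 days, a fall followed by a return above day 0 (log2 fold change -0.82, SE 0.26, edgeR adjusted p = 0.0119 on day 1 and log2 fold change 0.74, SE 0.26, edgeR adjusted p = 0.0196 on day 7). Col4a2 fell on day 1 from 388, 299 and 292 CPM to 143, 96.1 and 132 CPM (log2 fold change -1.40, SE 0.24, edgeR adjusted p = 5.11e-05) and stood at 400.5, 463 and 617 CPM on day 7 (log2 fold change 0.60, SE 0.23, edgeR adjusted p = 0.033).

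Beyond the members, 59 other genes of integrins, basement membranes, matrix receptors and adhesion linkers were listed, 56 of them tested. After 1 day 11 of these were higher and 19 lower, after 3 days 23 were higher and 11 lower, and after 7 days 28 were higher and 12 lower, against 26.2% and 28.5%, 26.1% and 27.8%, and 28.6% and 30.2% of all genes, so that the shares after 1 day were near the background. Their medians were -0.43, 0.51 and 0.95 on the log2 scale. Of the 24 other basement membrane proteins 11 were lower on day 1 (28.5% of all genes) and 14 higher on day 7 (28.6%). Frem1, at 1.21, 1.73 and 0.664 CPM on day 0, had no count on day 7. Among those with at least 10 CPM in a group and the same direction in all 3 batches, the largest rises by day 7 were those of Lims2, an adaptor of the kinase ILK (2.97 ± 2.88 to 89.4 ± 16.7 CPM, log2 fold change 4.80, SE 0.47), Pxdn, which crosslinks type IV collagen (4.69, SE 0.38), and Itgb6 (4.45, SE 0.26). By the same rule the largest falls were those of Egfl6, a basement membrane protein (634 ± 10.9 to 8.74 ± 3.96 CPM, log2 fold change -6.17, SE 0.84), Smoc2 (-2.67, SE 0.56) and Cd82, a tetraspanin (-2.63, SE 0.21). All 6 passed the test, the largest edgeR adjusted p being 3.79e-04 for Smoc2.

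In KO AECs, against KO day 0, 10 members were higher after 1 day (23.7% of all genes) and 7 lower (26.9%), 19 higher (25.4%) and 2 lower (26.6%) after 3 days, and 21 higher (28.6%) and 3 lower (29.9%) after 7 days. On day 1, 16 members had the same call in both genotypes, on day 3, 21, and on day 7, 22, and none had opposite calls. Of all 18046 genes, 9874 were called in WT and 9131 in KO AECs on day 1, 9736 and 9389 on day 3, and 10611 and 10558 on day 7. How many of all genes had the same call in both genotypes was not counted, so this agreement cannot be called particular to the members. Members called in 1 genotype alone were Fermt2 and Lamc1 on day 1, Dag1 and Hspg2 on day 3, and Itga8, Itga1 and Itga9 on day 7, which does not show that the genotypes differ in them.

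Compared directly, no member differed between KO and WT AECs by edgeR on day 0, 1, 3 or 7, over days 1 to 7 together, or in the test of genotype by day, and DESeq2 called none either. None was called without batch 1, in which the Y-linked genes differed. Of all genes, 0.0277%, 0.0166%, 0.0166%, 0.0166%, 0.0277% and 0.00554% were called in these 6 comparisons, so that 1 to 5 genes passed in each. At an unadjusted p under 0.05 there was 1 member on day 0, Fermt1, and none in the other 5 comparisons, by the main edgeR fit and the DESeq2 test alike. Other edgeR fits put Lama3 under it over days 1 to 7 (batch as a block, or no filter) and Lama1 on day 1 (no filter). With only the compared libraries these were Lamc1 and Nid1 on day 3. Leaving out 1 batch put Itga11, Lamb3, Lamc3 or Fermt1 under it in some of the 5, and without batch 2 Fermt1 did not pass on day 0. None was called after adjustment. Fermt1 was at 3.43, 2.38 and 0.554 CPM in WT and 5.69, 6.18 and 4.40 CPM in KO libraries on day 0, higher in KO in 3 of 3 batches (log2 difference 1.27, SE 0.56, edgeR adjusted p = 1.0). On day 0 the ciliated and club marker sums (14272 to 19622 CPM in KO against 5836 to 11966 in WT), the basal sums (8.34 to 12.4 against 0.775 to 4.66) and the AEC1 sums (4695 to 4920.4 against 3823 to 4437) did not overlap either. Their part in the level of Fermt1 was not tested. On day 7 its values overlapped, at 108, 81.7 and 25.3 and 86.1, 77.2 and 30.5 CPM.

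The intervals show how large a difference could have been missed. Of the 28 members with at least 10 CPM in a group, all 28 had a KO minus WT difference within 0.5 on the log2 scale over days 1 to 7, from -0.34 for Nid1 (95% interval -1.05 to 0.37) to 0.36 for Lama3 (-0.07 to 0.79). For 25 of the 28 the whole 95% interval lay within a 2-fold difference, with a median SE of 0.20. The difference was 0.08 for Itgb1 (-0.13 to 0.28) and 0.26 for Itgb4 (-0.25 to 0.77), the beta chain of keratin-linked hemidesmosomes. On single days the intervals were wider, and 13 to 17 of the 28 lay within 2-fold.

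**Figure D5:**
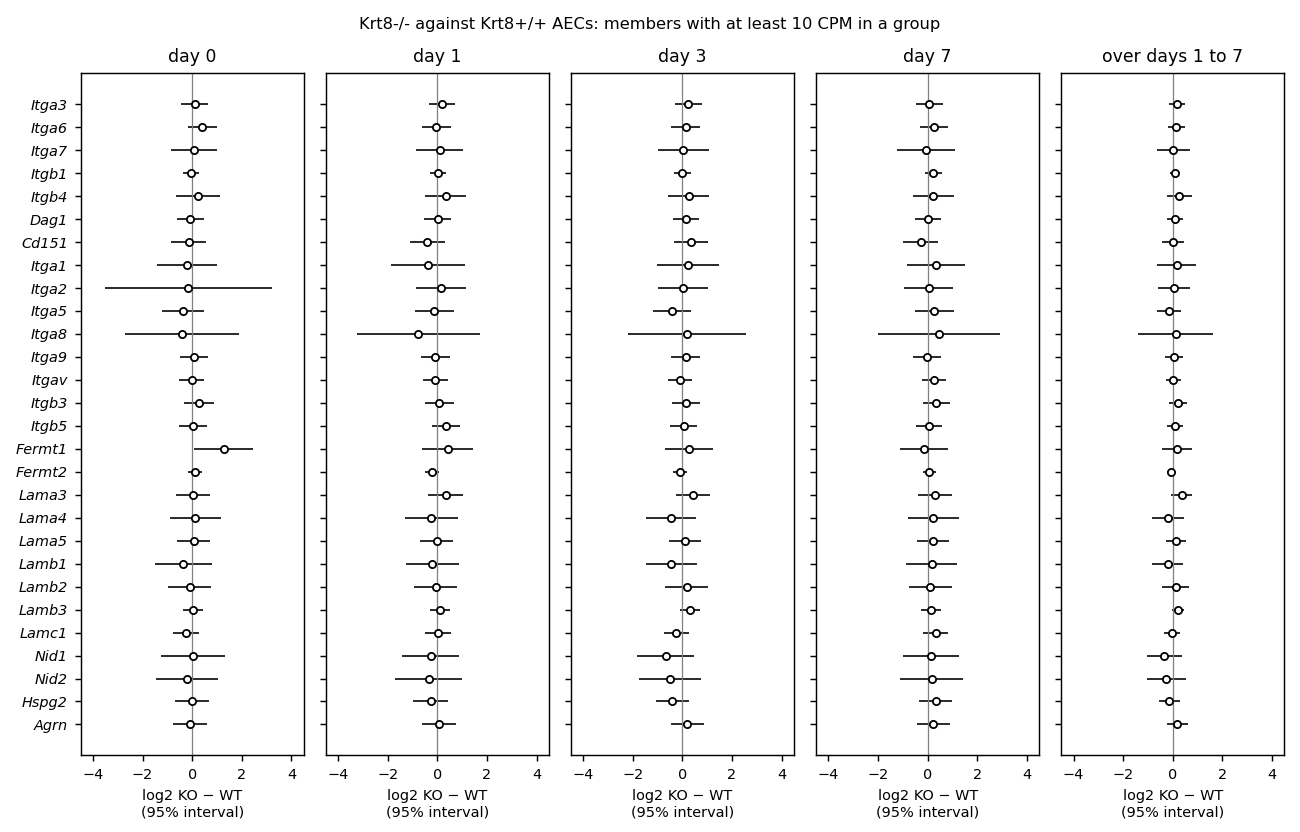
KO minus WT difference on the log2 scale (x axis, points; lines are 95% intervals) of the 28 members with at least 10 CPM in a group (y axis), on each day and over days 1 to 7. All intervals over days 1 to 7 contain 0, and that of Fermt1 on day 0 (1.27) is the only interval drawn that does not.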

How the data were processed

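RNA of mouse AECs was measured in 24 libraries. The authors deposited 1 table of whole-number counts per gene, not normalized, with 55421 mouse gene identifiers and 5 reporter rows that hold 0 counts. The submitters' processing notes name cutadapt 2.3, STAR 2.7.8a, RSEM 1.3.3 and the build GRCm38, without saying which step gave the table, so that the counts may be rounded estimates in which reads shared by near-identical genes were divided. Whether strand was used in counting is not stated.

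Symbols were taken from GENCODE M21, and exon lengths are those of merged exons. Genes were filtered with filterByExpr (minimum count 10, minimum total 15), scaled with TMM, and fitted with edgeR 4.0.16 in R 4.3.3 in 1 quasi-likelihood model of 8 groups with 16 residual degrees of freedom. P values were adjusted by Benjamini-Hochberg over 18046 genes, with a threshold of 0.05. The mean genotype difference over culture gave day 1 a weight of 0.167, day 3 one of 0.5 and day 7 one of 0.333. The interaction asked whether the KO minus WT difference varied with day. Intervals are t intervals of the fitted differences with 16 degrees of freedom. Depths of 10184439 to 19483386 counts per library set the precision, and floors cover counting error only.

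The members and lists were chosen with earlier results of these data known. Values in every library are given for the 6 members with the largest rise and up to 4 with the largest fall on day 7 in WT AECs (adjusted p under 0.05, at least 10 CPM in a group, same direction in 3 of 3 batches), which only 3 met, and for Itgb6, Col4a1 and Col4a2 (another gene of this rule is not reported here); other members with their values were chosen after those were seen. Of the other genes of these families, the 3 largest rises and the 3 largest falls are named.

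The labels give all groups the same 3 dated batches and replicate numbers, which pair the libraries. Between libraries of 1 date, departures from the group mean correlated across genes with r from -0.03 to 0.55. No 2 libraries of a group held identical values. Each count was repeated with size factors or the test of DESeq2 1.42.0, without the filter, with batch as a replicate block, without each batch, and with only the compared libraries fitted. After the data were seen, 2 more were added, without batch 2 on day 1 and without WT day 0 batch 1. The fits were tested on simulated counts with known changes. For WT day 7 against day 0, 72.2% of 4-fold and 32.7% of 2-fold changes were recovered. For KO against WT on day 1 these shares were 77.6% and 34%, so most 2-fold changes were missed.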

Additional observations from a re-analysis of the deposited data

How the results depend on the processing

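Of 1684 values of single members recomputed under the alternatives, 1540 kept their direction and their side of the threshold, 43 lost and 46 gained the call, and 55 turned direction. The counts of higher members against day 0 moved by less than 1.5 times in each genotype, day and alternative. Over the fits that leave out 1 batch, the count of lower members was 4 to 8 (7 with all) on WT day 1, 1 to 5 (3) on WT day 7, 1 to 2 (2) on KO day 3 and 1 to 4 (3) on KO day 7. Higher on WT day 3 than on day 1 were 11 to 21 (23), the latter without batch 2 on day 1 alone, and on day 7 than on day 3 2 to 5 (7), with 0 to 2 (0) lower. The DESeq2 test, no filter, and only the libraries compared in the fit each called 1 member lower on WT day 7 than on day 3, and the last called 5 lower on KO day 7. The cause was not tested, but a fit without a batch has fewer libraries. Over all genes, the fits that leave out 1 batch called 2614 to 3085 between WT days 1 and 3 (4740 with all). Between WT days 3 and 7 they called 325 to 572 (1188).

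With batch as a replicate block, which pairs the libraries of 1 date, 20 members were called on WT day 1 (17 without it), 24 on WT day 3 (23), 19 on KO day 1 (17) and 6 between WT days 3 and 7 (7). Gained were Itga8 and Lamb1 on day 1 in both genotypes, Lamc3 on WT day 1 and Lama4 on WT day 3, and Dag1 was lost between WT days 3 and 7. The block changed no other call of a member, and none was called between genotypes.

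The values that turned direction, none of them called before, follow as log2 changes, with the comparison named and ranges given over the fits without 1 batch or library. With DESeq2's size factors these were Cd151 0.030 (WT day 1 against 0). With the DESeq2 test these were Cd151 0.029 (WT day 1 against 0). With no filter these were Nid2 0.017 (KO day 3 against 0). With only the libraries compared in the fit these were Cd151 0.068 (WT day 1 against 0). With batch as a block these were Itgb8 -0.30 (WT day 3 against 0), Itgb8 -0.24 and Lama2 0.28 (WT day 7 against 0), Agrn -0.012 (KO day 1 against 0) and Nid2 0.0092 (KO day 3 against 0). Ranges for WT day 1 against 0 were Cd151 -0.33 to 0.19, Itgb8 -0.97 to 5.42, Lama2 -0.70 to 0.68, Lama4 -0.86 to 0.18, Lama5 -0.13 to 0.44 and Agrn -0.49 to 0.22. Ranges for WT day 3 against 0 were Cd151 -0.029 to 0.39, Itga8 -2.37 to 0.11, Itga9 -0.20 to 0.086, Itgb8 -0.29 to 5.96, Lama2 -0.063 to 1.62 and Lamc3 -2.12 to 0.81. Ranges for WT day 7 against 0 were Dag1 -0.17 to 0.46, Itgb8 -0.19 to 6.19, Lama2 -0.78 to 1.46, Lama4 -1.08 to 0.50, Lamc3 -1.09 to 0.82 and Nid2 -2.11 to 0.26. Ranges for KO day 1 against 0 were Cd151 -0.90 to 0.14, Itgb3 -0.00010 to 0.41, Lama3 -0.29 to 0.12, Lama5 -0.042 to 0.29 and Agrn -0.15 to 0.28. Ranges for KO day 3 against 0 were Itga11 -0.37 to 0.63, Itga9 -0.36 to 0.19 and Nid2 -0.31 to 0.41. Ranges for KO day 7 against 0 were Dag1 -0.017 to 0.62, Itga11 -0.32 to 1.13, Lama2 -0.79 to 0.57, Lama4 -0.87 to 0.095 and Nid2 -1.80 to 0.19.

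Depth limits the members with few counts, Lama1, Itgb8 and Lamc3, of which Lama1 had no count on day 0 and has no fitted fold here. Whether batches are separate mice or pools of mice is not given in the sources used here.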
